A study of Mus musculus with 4 samples.

Results

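The regions described here are 500 bp stretches of the mouse autosomes that held many tags from a Gata2 immunoprecipitation but few from Ldb1, Tal1 and control IgG immunoprecipitations of the same kind of cells. A bin was kept when it held at least 11 Gata2 tags and at most 3 Ldb1, 6 Tal1 and 3 IgG tags, and adjacent kept bins were joined. This gave 2364 bins in 2290 regions, out of 4299458 autosomal bins with a tag in any library (0.055%). The regions were chosen by the tag counts of all 4 libraries, so those counts are a description and carry no test. Gata2 bins in general, with at least 11 Gata2 and at most 3 IgG tags, numbered 14560 (0.339% of the bins), and the regions low in both other factors made up 16.2% of them (95% exact interval 15.6 to 16.8).

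The series used lineage-negative bone marrow cells, meaning mouse marrow from which mature blood cells had been removed with magnetic beads. This fraction is rich in blood stem and progenitor cells and is a mixture of cell types. Chromatin was precipitated with antibodies against Gata2, Ldb1 and Tal1 (also called Scl) and with control IgG, 1 library each, in a study of what Ldb1 does in keeping blood stem cells. Strain, genotype, sex, age and treatment of the mice are not stated in what was used here. The sample labels set the 4 libraries apart by the antibody alone, but their tags differ in more than that. Length, alignment score and the share of tags without a mismatch also differ, the last being 95.2% in Gata2, 90.9% in Tal1, 74.9% in Ldb1 and 63.5% in IgG. With no replicates, all intervals cover only the error of counting tags, and tags are not all independent molecules. Counted once per position and strand, the autosomes held 5785973 Gata2, 3866477 Ldb1, 8701045 Tal1 and 3401045 IgG tags. In a mixture of cells, a site occupied in fewer cells and a site occupied less often in each cell cannot be told apart.

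Gata2 is a zinc finger transcription factor that recognises the letters GATA in DNA and is needed for blood stem and progenitor cells. In these cells it is known to join a complex in which Tal1, a basic helix-loop-helix factor, binds E-box letters together with an E protein. The adaptor Lmo2 and Ldb1, which does not bind DNA itself, hold the DNA-bound partners together. Gata2 sites with few Ldb1 and Tal1 tags are therefore sites where the other antibodies of the series gave little signal for that complex. Positions are in mouse build mm8. Genes and sequence motifs are not assigned to them, because neither a genome nor an annotation of that build was used here.

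Gata2 was well above the level of an ordinary bin at these places, and most of them were of moderate strength. The member bins held a median of 13 Gata2 tags (mean 14.8 ± 5.40, SD over 2364 bins), with a lowest value of 11 and a highest of 57. This mean was 11.03 times that of all autosomal bins, which averaged 1.35 Gata2 tags. Of the members, 1315 (55.6%) had 11 to 13 Gata2 tags, 803 had 14 to 20, 190 had 21 to 30 and 56 (2.37%) had more. Just inside the Gata2 limit 607 bins had 11 tags, and just outside it 992 bins that met the other limits had 10. The regions were narrow: 2217 of 2290 (96.8%) were a single bin, 72 were 2 bins wide and 1 was 3 bins wide.

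The name of the group holds for Ldb1 and Tal1 only in the sense of its limits. The member bins held a mean of 1.20 Ldb1 tags, which was 1.34 times the mean of all autosomal bins, and a mean of 3.70 Tal1 tags, which was 1.83 times that mean. IgG stood at 0.871 tags, or 1.10 times. The limit of 3 Ldb1 tags lies 3.34 times above the mean bin and that of 6 Tal1 tags 2.96 times above it, so "low" admits some enrichment. Of all autosomal bins, 2.87% exceed the Ldb1 limit, 2.52% the Tal1 limit and 4.63% either. Ldb1 had no tag in 757 member bins (32.0%) and Tal1 had none in 97 (4.10%), while 999 (42.3%) had no IgG tag. A count of 0 in 1 bin allows up to 3 tags. Both caps cut through a continuous range: 355 members had 3 Ldb1 tags and 210 otherwise qualifying bins had 4, and 448 members had 6 Tal1 tags where 389 such bins had 7. The IgG limit removed little, with 140 members at 3 IgG tags and 30 such bins at 4.

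**Figure D1:**
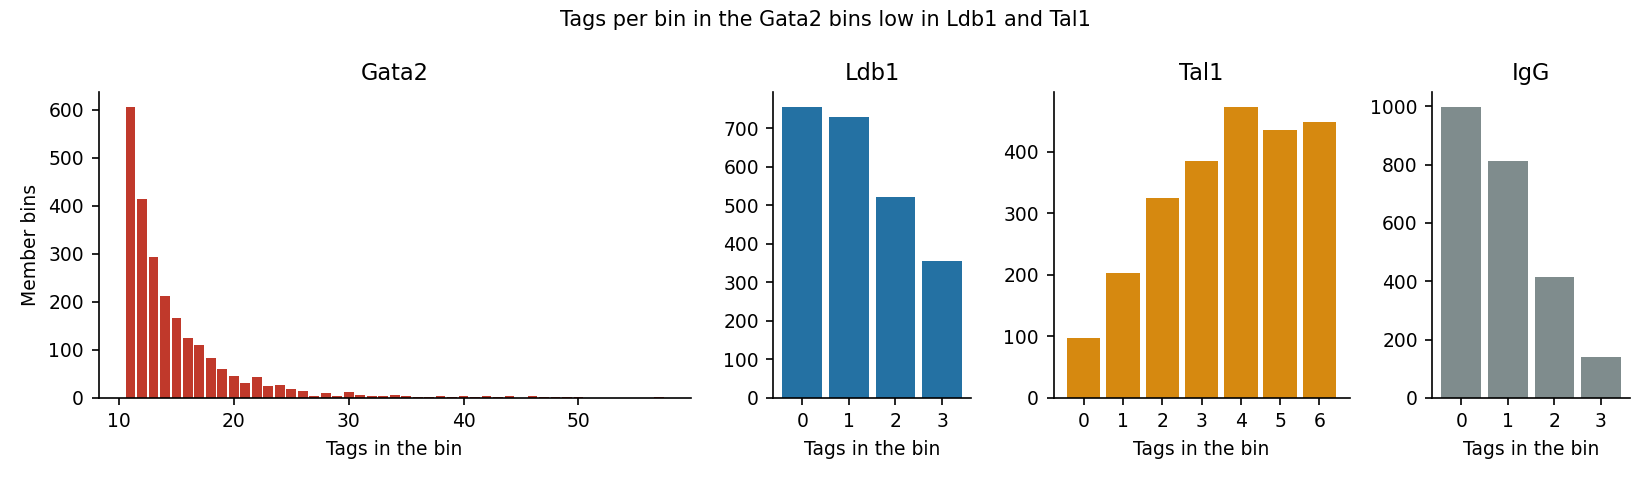
Number of member bins (vertical axis, linear, a separate scale in each panel) by the number of tags in the 500 bp bin (horizontal axis) for Gata2, Ldb1, Tal1 and IgG. Gata2 falls off steeply from 607 bins at 11 tags to a single bin at 57, Ldb1 and IgG are commonest at 0 (757 and 999 bins), and Tal1 at 4, with 448 bins at its limit of 6.

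The strongest members show how large the contrast could be. The first, on chromosome 18 from 12056501 to 12057000, held 57 Gata2 tags, against 1 Ldb1, 4 Tal1 and 2 IgG tags. On chromosome 1 the bin from 80525501 to 80526000 had 50 Gata2, 1 Ldb1, 5 Tal1 and 0 IgG tags. In these and the following bins Gata2 outnumbered the other 3 libraries together several times over, although the Tal1 library was the deepest. Chromosome 6 held a bin from 144627501 to 144628000 with 49 Gata2, 1 Ldb1, 5 Tal1 and 0 IgG tags. A second bin of chromosome 6, from 97488501 to 97489000, had 48 Gata2, 1 Ldb1, 5 Tal1 and 3 IgG tags, the most IgG that the rule allows. The bin of chromosome 12 from 87834001 to 87834500 had 49 Gata2, 1 Ldb1, 4 Tal1 and 1 IgG tags. That of chromosome 19 from 17363001 to 17363500 had 47 Gata2, 1 Ldb1, 2 Tal1 and 0 IgG tags, the fewest Tal1 tags of the 10 strongest. The remaining 4 lay on chromosome 15 from 98334001 (48 Gata2 tags), chromosome 2 from 37593501 (47), chromosome 4 from 120484001 (46) and chromosome 7 from 37146501 (46), with 1 to 3 Ldb1, 3 to 6 Tal1 and 0 to 2 IgG tags. Both strands contributed at all 10. At the chromosome 18 site, for example, 27 of the 59 Gata2 tags within 200 bp of the summit were on the forward strand.

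The bins beside the strongest sites held few tags. Those on either side of the chromosome 18 site held 2 and 7 Gata2 tags, 3 and 3 Ldb1 tags and 2 and 1 Tal1 tags. At 9 of the 10 no neighbouring bin held more than 7 Gata2, 3 Ldb1 or 5 Tal1 tags. The site on chromosome 15 was the exception, since its left neighbour held 27 Gata2 tags and 4 Ldb1 tags and was left out by the Ldb1 limit alone. The widest region, 1500 bp on chromosome 16 from 15673501 to 15675000, held 42 Gata2, 2 Ldb1, 11 Tal1 and 2 IgG tags over its 3 bins. Its best bin had 15 Gata2 tags. Next in width were 72 regions tied at 1000 bp, and the 4 of them with most Gata2 tags had best bins of 39 to 47.

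At 48 members neither Ldb1 nor Tal1 had a tag, and 24 of these had no IgG tag either. Such bins held a median of 12.5 Gata2 tags, close to the 13 of all members. The strongest of the 24 lay on chromosome 8 from 87035001 to 87035500 with 23 Gata2 tags. The next, on chromosome 3 from 50484501 to 50485000, had 20, and the third, on chromosome 1 from 167969001 to 167969500, had 16. Those on chromosome 4 from 138900501 and on chromosome 9 from 116016001 had 15 each. For the first of these, 400 bp centred on its summit held 3 Tal1 tags, while the other 4 had 0 Tal1 and 0 Ldb1 tags there as well.

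The share of Gata2 bins that were low in both other factors was smaller where Gata2 was stronger. It was 20.9% (19.8 to 22.1) among the 4887 bins with 11 or 12 Gata2 tags, 15.9% (14.8 to 17.0) at 13 to 15 tags and 14.003% (12.8 to 15.3) at 16 to 20. At 21 to 30 tags it was 11.5% (10.02 to 13.2) and at 31 to 50 tags 9.39% (7.15 to 12.04). Of the 177 bins with more than 50 Gata2 tags, 1 was a member, which is 0.565% (0.0143 to 3.11). The Ldb1 and Tal1 limits were the same at every Gata2 level, and the rule used the counts of all these libraries. The fall in the share is therefore a description. Whether it goes beyond what fixed limits give where tag counts rise together was not tested. Across the 2364 bins, Spearman's rho with the Gata2 count was -0.018 for Ldb1, 0.018 for Tal1 and -0.026 for IgG. These correlations are across bins of the same libraries, with all 4 counts limited by the rule, and carry no test.

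**Figure D2:**
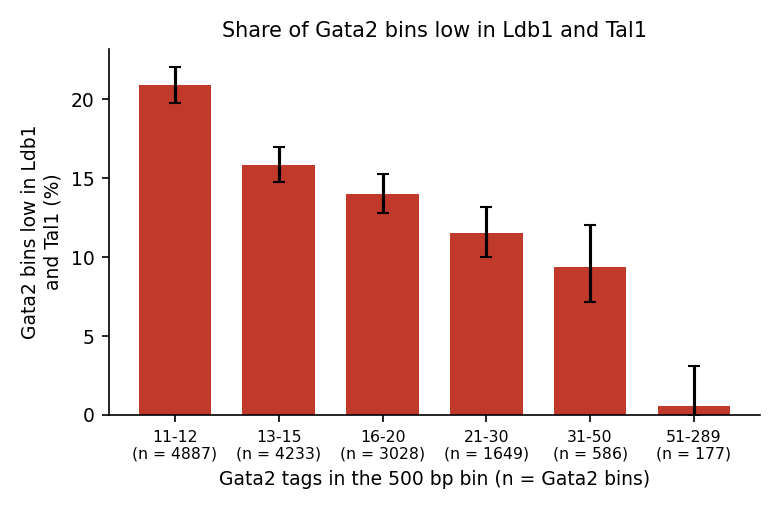
Share of Gata2 bins that were low in Ldb1 and Tal1 (vertical axis, percent) by the number of Gata2 tags in the bin (horizontal axis, n is the number of Gata2 bins). Bars are shares and whiskers 95% exact intervals, which cover counting error only. The share is 20.9% at 11 or 12 tags, 9.39% at 31 to 50 and 0.565% above 50. The Ldb1 and Tal1 limits are the same at every Gata2 level, so the fall is a description.

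The members lacked nearly all of the strongest Gata2 bins. The other Gata2 bins numbered 12196 bins in 10446 regions, and of the bins 3473 had Tal1 above its limit but not Ldb1, 451 had Ldb1 but not Tal1, and 8272 had both. The members averaged 14.8 ± 5.40 Gata2 tags (SD over bins, median 13, highest 57) and the others 17.1 ± 11.2 (median 14, highest 289). Within 400 bp centred on the Gata2 summit, the Gata2 density was 9.95 times that of flanks 3 to 5 kb away in the members (9.80 to 10.1) and 10.2 times in the other Gata2 bins (10.2 to 10.3). Relative to IgG in the same 400 bp, and scaled to the autosomal tags of each library, Gata2 was 11.9-fold higher in the members (11.4 to 12.5) and 11.9-fold higher in the others (11.6 to 12.1). Both groups were cut at the same Gata2 and IgG limits, which sets much of these values, and nothing is read from their nearness.

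The shape of the Gata2 signal, which the rule did not set directly, was tighter in the members. Of the Gata2 tags within 500 bp of the summit, 58.6% (58.1 to 59.0) lay in the central 200 bp in the members and 52.04% (51.8 to 52.2) in the other Gata2 bins. The gap was as wide among bins with 11 to 15 Gata2 tags, at 54.4% (53.9 to 55.03) in the members and 47.4% (47.1 to 47.7) in the others. However, 85.8% of the other regions were a single bin, against 96.8% of the members, and tags of an adjacent Gata2 bin can fall outside the central 200 bp. Whether the gap holds among single bins without a Gata2 bin beside them, or with repeated tags kept, was not tested. Gata2 tags lay a median of 41 bp from the summit in the members and 45 bp in the others. The 5' ends of forward and reverse Gata2 tags were most often 88 bp apart in the members and 105 bp apart in the others, but 99 bp and 107 bp among bins with 11 to 15 tags. In the members the number of pairs was nearly as high at 106 bp, at 2.59 times its level at long distances, as at 88 bp (2.60 times). By class the distance was 104 bp with Tal1 alone, 93 bp with Ldb1 alone and 105 bp with both. At 11 to 15 tags these were 94, 110 and 98 bp, so a short distance was not particular to the members. With only tags free of mismatches the distance in the members was 107 bp, and with repeated tags kept 108 bp. The others were not recomputed with these tags, so whether the difference holds with them was not tested. Forward tags made up a median of 50% of the Gata2 tags near the summit in both groups.

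The amounts of Tal1 and Ldb1 at the Gata2 summits were set by the limits of the rule and are given as a description. Tal1 density within the central 400 bp was 1.75 times that of the flanks in the members (1.71 to 1.79) and 9.71 times in the other Gata2 bins (9.66 to 9.76). For Ldb1 the values were 1.41 times in the members (1.36 to 1.47) and 9.06 times in the others (8.98 to 9.14). IgG, the background, stood at 1.26 times in the members (1.19 to 1.32) and 1.40 times in the others (1.37 to 1.43). Scaled to depth, Tal1 in the members was 2.06-fold above IgG (1.95 to 2.17) and Ldb1 1.46-fold (1.37 to 1.55), against 13.02-fold and 9.91-fold in the others. The values followed the limits. With repeated tags kept, the Ldb1 density in the members was 0.935 times that of the flanks, and with limits of 1 Ldb1 and 3 Tal1 tags it was 0.638 times, below the flanks in both cases. Under those stricter limits the Tal1 density was 1.00 times that of the flanks, and with repeated tags kept it was 1.35 times.

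The remaining Tal1, Ldb1 and IgG tags were all denser near the Gata2 summit than farther out. In the members Tal1 tags were 1.61 times as dense in the 200 bp around the Gata2 summit as 300 to 500 bp from it (1.55 to 1.67), and Ldb1 tags 1.31 times (1.23 to 1.40). IgG tags were 1.18 times as dense there (1.08 to 1.28). The 200 bp lie mostly inside the limited bin and the outer stretch mostly outside it, so the limits hold the Ldb1, Tal1 and IgG ratios down. The limits lie at unlike heights, 3.34 times the mean bin for Ldb1, 2.96 for Tal1 and 3.79 for IgG. Nothing is therefore read from the differences between these libraries. In 381 of the regions the 500 bp centred on the summit held more than 6 Tal1 tags, and the ratios were not recomputed without them. The limits are the same at every Gata2 level, so the densities by level are no finding. For Tal1 they were 1.77 times that of the flanks (1.71 to 1.84) at 11 or 12 Gata2 tags and 1.67 times (1.56 to 1.80) at 21 to 57. For Ldb1 they were 1.45 (1.37 to 1.55) and 1.39 times (1.23 to 1.57) at these levels, while Gata2 density was 7.56 times (7.37 to 7.75) and 18.2 times (17.5 to 18.97).

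**Figure D3:**
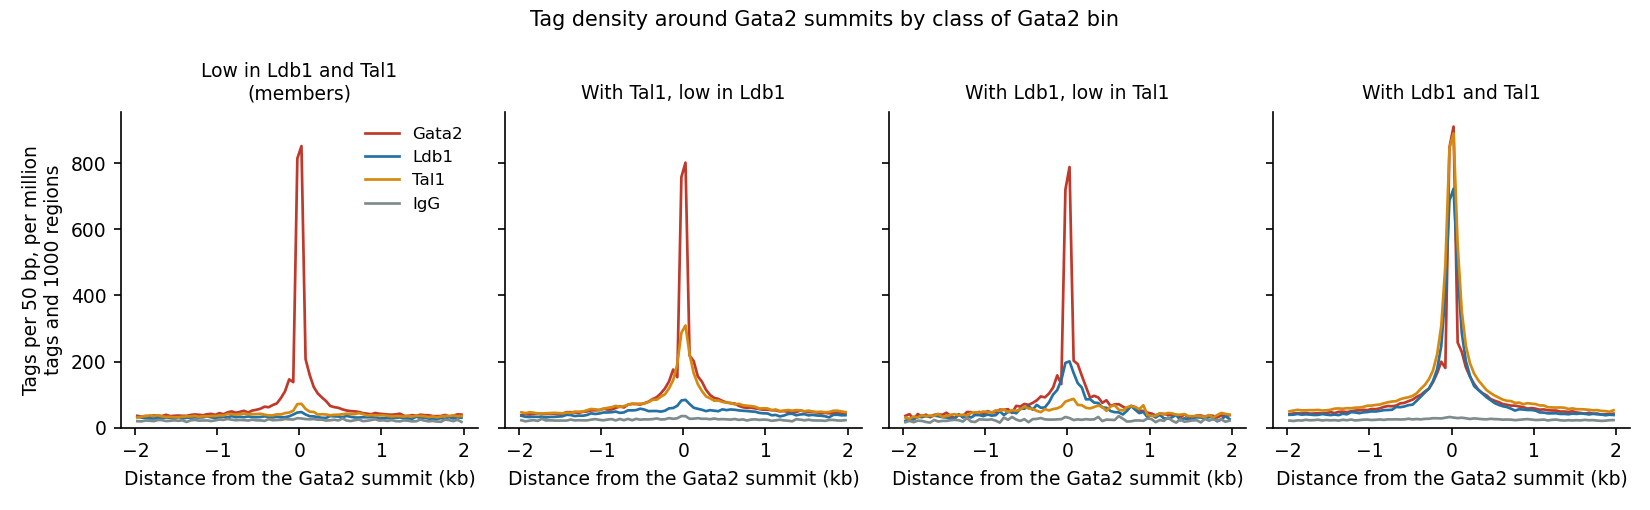
Tags per 50 bp, per 1000000 autosomal tags of each library and 1000 regions (vertical axis, linear), by distance from the Gata2 summit (horizontal axis, kb), for Gata2, Ldb1, Tal1 and IgG in the 4 classes of Gata2 bin, the members leftmost. Within 50 bp of the summit Gata2 averages 833 in the members and 879 in bins with both factors, whereas Tal1 averages 72.1 and 867 and Ldb1 47.0 and 705. The summit was placed at the 100 bp with most Gata2 tags, which by itself raises the central Gata2 values and the dip beside them in every class.

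In the flanks 3 to 5 kb from the summits the members also had fewer tags of the complex than the other Gata2 bins did. The rule set no limit on the flanks as such, but they can hold further Gata2 bins, which were classed by the same counts. Of the other Gata2 regions, 31.7% had another of their class within 10 kb, against 7.95% of the members. How much of the gaps comes from such bins was not tested. Tal1 flank tags numbered 21.9 per region in the members and 27.9 in the others, a ratio of 0.787 (0.779 to 0.794). Ldb1 flank tags numbered 8.53 and 10.1, a ratio of 0.844 (0.831 to 0.857), and Gata2 flank tags 14.8 and 16.1, a ratio of 0.923 (0.913 to 0.934). IgG flank tags were 5.78 and 5.80 per region, a ratio of 0.997 (0.978 to 1.02). The gaps were smaller against the Gata2 bins with Ldb1 alone, and for Gata2 there was none. There the ratios were 0.942 (0.923 to 0.962) for Tal1, 0.940 (0.909 to 0.973) for Ldb1 and 1.01 (0.983 to 1.04) for Gata2. Against bins with Tal1 alone they were 0.823, 0.895 and 0.893, and against bins with both factors 0.753, 0.811 and 0.911. Relative to the average autosomal bin the flanks of the members were still above 1 for the factors, at 1.38 for Gata2, 1.36 for Tal1 and 1.19 for Ldb1, and below 1 for IgG, at 0.914.

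Ldb1 and Tal1 were often found next to the members. In 721 of the 2290 regions (31.5%, 29.6 to 33.4) a neighbouring bin had more than 3 Ldb1 or more than 6 Tal1 tags, where 8.44% of all autosomal bins have such a neighbour. In the other Gata2 bins this share was 69.3% (68.4 to 70.1), a difference of -37.8 percentage points for the members (95% Newcombe interval -39.8 to -35.6). The difference was -35.5 points (-38.05 to -32.9) among bins with 11 to 15 Gata2 tags. A Tal1 or Ldb1 peak at the site itself can reach the next bin, and the rule placed such peaks in the others, so part of this difference comes from the rule. Without the members that had such a neighbour, Tal1 density at the remaining summits was 1.59 times that of the flanks and Ldb1 density 1.26 times.

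Regions were also called for each library against IgG by a one-sided Poisson test in 400 bp windows (false discovery rate 0.01 with Benjamini-Hochberg adjustment, at least 4-fold). A called Gata2 region overlapped 2216 members (96.8%), where called Gata2 regions cover 1.08% of all bins, but the rule used the same tags and nothing is read from this. Called Tal1 regions overlapped 195 members (8.52%, 7.40 to 9.73), against 1.91% of all bins, and called Ldb1 regions 45 members (1.97%, 1.44 to 2.62), against 0.665% of all bins. In the other Gata2 bins these shares were 80.9% and 46.3%. The rule used these tags too, though in other windows. Counting all called regions within 10 kb, the one at the site included, the Tal1 shares were 55.0% in the members, 91.9% in the others and 20.5% of all bins. The Ldb1 shares were 26.2%, 63.7% and 10%, and either factor was called within 10 kb of 57.3% of the members and 21.7% of all bins. The site itself makes much of these gaps, so regions 2 to 10 kb away were counted on their own. Such regions can still fall on further Gata2 bins, which the rule classed by the same tags. At that distance Tal1 was called near 1030 members (45.0%, 42.9 to 47.04), near 58.1% of the others (57.1 to 59.01) and near 18% of all bins, a difference of -13.1 points between members and others (-15.3 to -10.8). Ldb1 was called near 465 members (20.3%, 18.7 to 22.01), near 29.4% of the others (28.6 to 30.3) and near 8.41% of all bins, a difference of -9.12 points (-10.9 to -7.22).

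**Figure D4:**
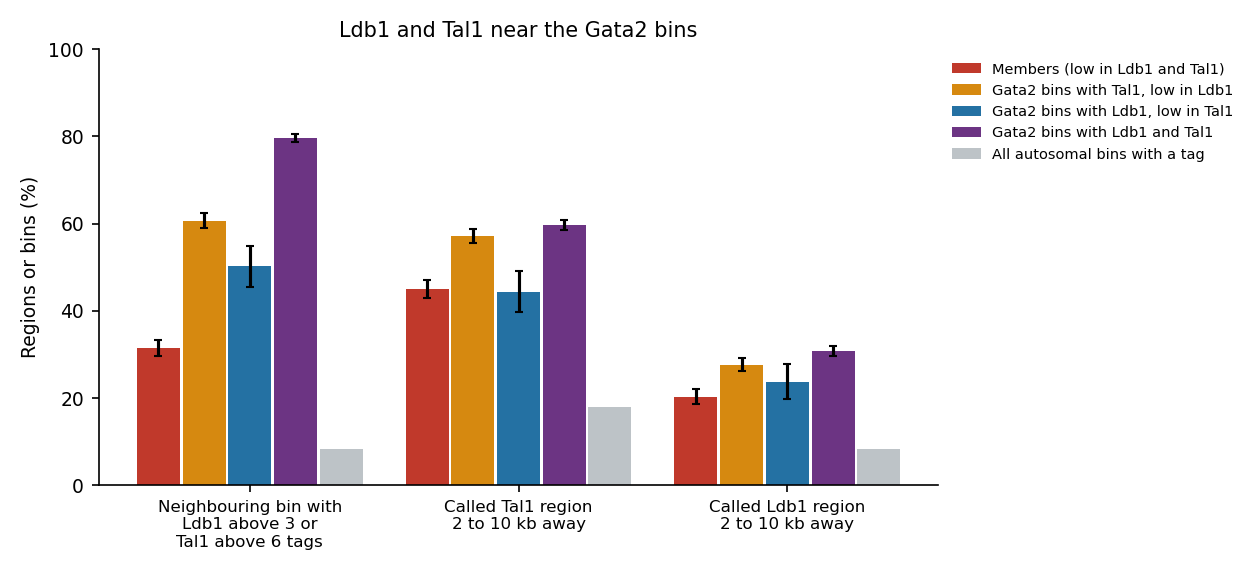
Share of regions (vertical axis, percent) with a neighbouring bin above the Ldb1 or Tal1 limit, with a called Tal1 region 2 to 10 kb away and with a called Ldb1 region 2 to 10 kb away, for the members, the 3 other classes of Gata2 bin and all autosomal bins with a tag. Whiskers are 95% exact intervals, which cover counting error only. The members stand at 31.5%, 45.0% and 20.3%, above the 8.44%, 18% and 8.41% of all bins, and below Gata2 bins with both factors at 79.6%, 59.7% and 30.8%, while the intervals of Gata2 bins with Ldb1 alone overlap theirs for called Tal1 (44.4%) and called Ldb1 (23.7%).

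The fixed grid itself set part of the membership. When 500 bp were centred on each Gata2 summit and the 4 limits were applied again, 1619 of the 2290 regions (70.7%, 68.8 to 72.6) met them. In 381 regions the centred 500 bp held more than 6 Tal1 tags and in 143 more than 3 Ldb1 tags, 453 regions in all (19.8%). In 8 regions they held at least 20 Tal1 tags. The most was 53 Tal1 and 15 Ldb1 tags, for the bin on chromosome 16 from 92917501 to 92918000, which had 11 Gata2 tags. This region was chosen for its values. With bins starting at 250 in place of 0 the number of regions was nearly the same, 2325, but only 1167 of the 2290 members (50.96%) overlapped one of them, and 50.2% of the 2325 overlapped a member. The number of such regions was therefore more stable than the list. Regions that met the limits when centred and also had no neighbouring bin above a limit numbered 1259 (55.0%, 52.9 to 57.03). Of these, 667 had no called Ldb1 or Tal1 region within 10 kb, with a median of 14 and a highest value of 57 Gata2 tags.

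Tags at the members were placed about as well as those at other Gata2 bins. Of the Gata2 tags in the member bins, 95.9% (95.7 to 96.1) had no mismatch, against 95.1% (95.1 to 95.2) in the other Gata2 bins and 95.2% of all autosomal Gata2 tags. A deposited score of at least 52, where 53 is the highest, was held by 89.2% (88.9 to 89.5) in the members, 89.9% (89.8 to 90.04) in the others and 84.1% of all. Tags that repeated a position made up 16.8% (16.5 to 17.2) in the members, 17.3% (17.2 to 17.4) in the others and 14.1% of all. Members in which at least 90% of the Gata2 tags near the summit lay on 1 strand numbered 41 (1.79%, 1.29 to 2.42), against 0.440% (0.323 to 0.587) of the other regions, a difference of 1.35 points (0.860 to 1.99). Among bins with 11 to 15 Gata2 tags the shares were 1.78% (1.20 to 2.55) and 0.610% (0.430 to 0.840). With Ldb1 alone it was 0.877% (0.181 to 2.54) at that level, an interval that overlaps that of the members. The 41 members had a median of 12 Gata2 tags and a highest value of 29. Of their tags 21.4% repeated a position, against 16.8% in the remaining members. Without these 41 the Tal1 density at the members was 1.74 times that of the flanks and the Ldb1 density 1.42 times.

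For comparison, the limits were turned round, with at least 7 IgG tags and at most 5 Gata2, 3 Ldb1 and 6 Tal1 tags. This scales the Gata2 limits to the IgG depth and gave 583 autosomal bins, against the 2364 members. IgG tags matched the genome less well than Gata2 tags, with 63.5% against 95.2% free of mismatches. The 583 bins are therefore no estimate of how many members arise from background, and nothing is read from them. The IgG limit of the rule left out 832 of the 15392 bins with at least 11 Gata2 tags.

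All autosomes held members. They numbered 10.997 bins per 10 Mb of covered sequence, with the fewest on chromosome 14 (7.91, 6.31 to 9.78) and the most on chromosome 11 (16.1, 13.9 to 18.6), where 179 bins lay. Other Gata2 bins were also densest on chromosome 11, at 100.4 per 10 Mb, and there the members were only 13.8% of the Gata2 bins (12.007 to 15.8). Across the 19 autosomes the densities of members and of other Gata2 bins had a Pearson correlation of 0.721 and a Spearman correlation of 0.581, given as a description since chromosomes share the libraries and their depth. The share of members among Gata2 bins ran from 12.7% on chromosomes 8 (10.5 to 15.2) and 17 (10.3 to 15.4) to 20.96% on chromosome 18 (17.2 to 25.1).

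**Figure D5:**
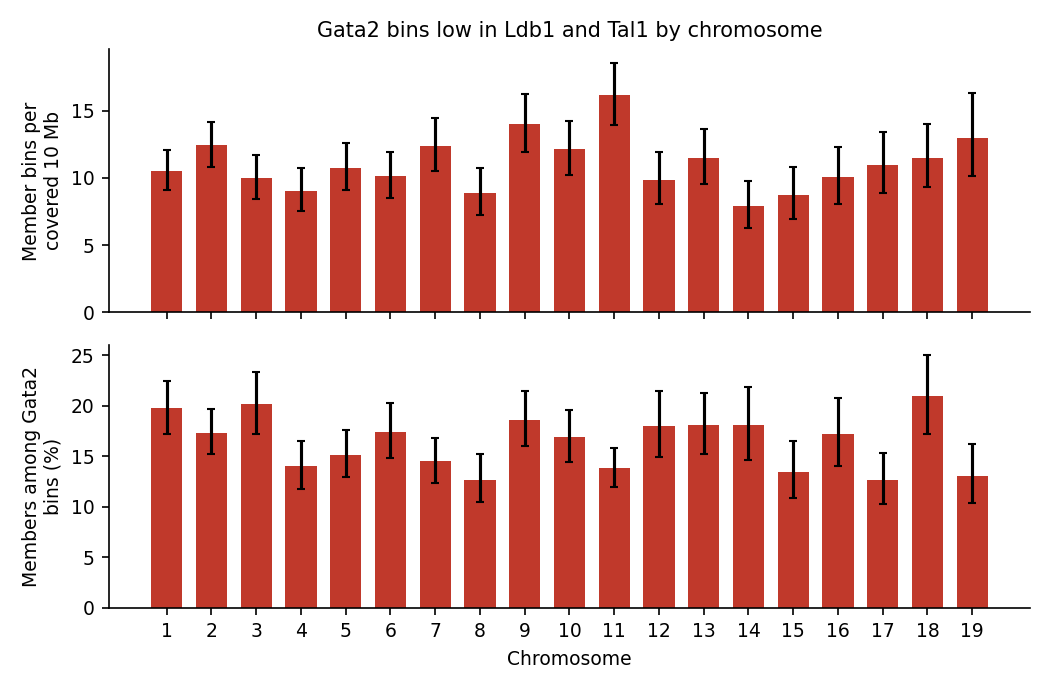
Member bins per 10 Mb of covered sequence (upper panel) and share of members among Gata2 bins (lower panel, percent) for the 19 autosomes, with 95% exact intervals for counting error. Chromosome 11 has the highest density, 16.1 per 10 Mb, but a share of 13.8%, and chromosome 18 has the highest share, 20.96%.

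A larger share of the members than of other bins had a member nearby. The nearest other member was a median of 157.5 kb away, and 182 of the 2290 (7.95%, 6.87 to 9.13) had one within 10 kb, against 2.07% of the bins that are not members. This was not particular to the members. A region of its own class lay within 10 kb of 14.4% (13.2 to 15.6) of those with Tal1 alone. For regions with both factors the share was 23.8% (22.8 to 24.8), and for those with Ldb1 alone 0.893% (0.244 to 2.27). The classes differ in size, which affects these shares. The nearest Gata2 bin of any class was a median of 19.25 kb away, and 36.3% (34.3 to 38.3) had one within 10 kb. Of the bins that are not Gata2 bins, 9.64% had one that near. The share was 41.0% (39.8 to 42.1) of regions with both Ldb1 and Tal1 and 47.9% (46.2 to 49.6) of those with Tal1 alone. With Ldb1 alone it was 43.1% (38.4 to 47.8). The members' differences were -4.69 points from regions with both factors (-6.95 to -2.40) and -11.6 points from those with Tal1 alone (-14.2 to -8.96). From those with Ldb1 alone the difference was -6.79 points (-11.8 to -1.86). These differences depended on how bins were joined, since adjacent bins of different classes count as separate regions. With all other Gata2 bins joined into 1 class, 36.7% of its regions had a Gata2 bin within 10 kb, a difference of -0.434 points (-2.59 to 1.76). Within 50 kb the shares were 71.8% of the members and 75.4% of the joined class, a difference of -3.60 points (-5.65 to -1.61). The share of all bins at 50 kb was not computed. A Gata2 bin with both other factors lay within 10 kb of 489 members (21.4%, 19.7 to 23.1). The share was 34.8% (33.2 to 36.5) with Tal1 alone and 27.7% (23.6 to 32.1) with Ldb1 alone. Of the regions with both factors, 23.8% (22.8 to 24.8) had another such region that near, an interval that overlaps that of the members. These shares too depended on how bins were joined, and the share of all bins was not computed, so nothing is read from their order.

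No 50 kb stretch held more than 4 member regions. One of those with 4 spanned 7000 bp on chromosome 10, from 18690001 to 18697000, with 11 to 15 Gata2, 0 to 3 Ldb1 and 4 Tal1 tags in the best bin of each. Within the 50 kb from its start there were also 5 Gata2 bins of other classes, 8 called Tal1 regions and 3 called Ldb1 regions. A stretch of chromosome 11 from 53460501 to 53500500 held members with 23, 22, 11 and 16 Gata2 tags. Ldb1 there had 2, 0, 0 and 1 tags, Tal1 had 3, 2, 3 and 6, and IgG had 0 in each. Its 50 kb contained 4 called Tal1 regions and no called Ldb1 region. The third, on chromosome 9 from 48418501 to 48467500, had members with 11, 14, 16 and 13 Gata2 tags. Its 50 kb held no other Gata2 bin, 2 called Tal1 regions and 1 called Ldb1 region.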

How the data were processed

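Aligned tags from 4 immunoprecipitations (Gata2, Ldb1, Tal1, control IgG; 1 library each) were analysed as deposited, 1 line per tag, placed on mouse build mm8 (the build is from the submitters' processing notes). Which aligner was run, and with what filters, is not given in the sources used here. Per the files' own columns, Tal1 tags have 36 bp and those of Gata2, Ldb1 and IgG 25 bp, and the deposited score of each alignment, whose scale is not stated, runs from 4 to 53 for Gata2 and is 0 throughout for Ldb1 and IgG. Tags without a mismatch are 95.2% in Gata2, 74.9% in Ldb1, 90.9% in Tal1 and 63.5% in IgG, so the libraries were not mapped equally well.

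With Python 3.11.15, numpy 2.4.6 and scipy 1.17.1, 1 tag was kept per position and strand (14.1% of Gata2, 32.9% of Ldb1, 18.3% of Tal1 and 29.9% of IgG tags repeated one) and moved by 54 bp along their strand. They were then counted in 500 bp bins on chromosomes 1 to 19. Summits are the positions with most Gata2 tags within 50 bp. For called regions, 400 bp windows every 100 bp with at least 3 tags were tested against the largest of the genome mean and the scaled IgG count in 1, 5 and 10 kb. Shares have 95% Clopper-Pearson intervals, ratios of counts 95% conditional binomial intervals and differences of shares Newcombe intervals. With 1 library per antibody, no test between antibodies was possible. The steps were run on simulated data with Gata2 and Tal1 sites planted at the middle of bins and no Ldb1 sites. That run could not show the effect of the fixed grid on membership.

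The rule for the regions, the comparisons and the alternatives were chosen with earlier results of these data known. Regions were named by rule: the 10 with most Gata2 tags, the 5 widest (ties by Gata2 tags), the 3 stretches of 50 kb with most members and the 5 with no other tags and most Gata2. The neighbours of the chromosome 15 site, the centred counts and the counts 2 to 10 kb away were chosen after results of these data were seen.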

Additional observations from a re-analysis of the deposited data

How the results depend on the processing

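Of 81 values recomputed for 10 results under 11 alternatives, 49 stayed near the first value (within its interval, for counts within 1.5 times, for the strand distance within 15 bp). Asking for at least 1 IgG tag within 10 kb left all 2290 regions in place. Its 10 values could therefore not differ, and though they are among the 49 they say nothing about stability. Moving tags by 75 bp kept all 10 near, with 2281 regions. With bins starting at 250, only the overlap with called Tal1 regions moved, to 9.89%. With repeated tags kept, the densities were 1.35 for Tal1 and 0.935 for Ldb1, 49.5% of members lay beside a bin above a limit, 10.03% and 5.56% overlapped called Tal1 and Ldb1 regions and the strand distance was 108 bp; 1426 of the 2290 members (62.3%) overlapped the new list. With mismatch-free tags, members were 18.7% of Gata2 bins, with densities of 1.86 (Tal1) and 1.59 (Ldb1), 29.6% beside a bin above a limit, 9.77% within 10 kb of another and a strand distance of 107 bp. With at least 15 Gata2 tags there were 837 bins in 824 regions, 12.8% of Gata2 bins. Of these, 27.7% lay beside a bin above a limit, 7.16% and 1.09% overlapped called Tal1 and Ldb1 regions and 3.64% had another within 10 kb. With limits of 1 Ldb1 and 3 Tal1 tags there were 680 bins in 671 regions, 4.67% of Gata2 bins, with densities of 1.00 (Tal1) and 0.638 (Ldb1). Of them, 71.5% lay beside a bin above the stricter limits, 3.58% and 0.894% overlapped called Tal1 and Ldb1 regions and 2.09% had another within 10 kb. The share of all bins beside such a bin was not recomputed with the stricter limits or with repeated tags kept. Nothing is read from the 71.5% and the 49.5%, which have no background beside them. Among bins with 11 to 15 Gata2 tags, 5.61% had another within 10 kb. Stricter limits leave fewer regions by construction, and the other causes were not tested. Of the alternatives chosen after seeing the data, leaving out members beside a bin above a limit gave densities of 1.59 (Tal1) and 1.26 (Ldb1). No paired analysis was possible because each antibody has 1 library. The Ldb1 library had an average of 0.899 tags per bin, so a low count there is weak evidence in any 1 bin.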

Other observations

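Chromosome X lies outside the rule. Applied there, the same limits kept 19 bins, 15.6% of the 122 Gata2 bins of that chromosome (95% exact interval 9.64 to 23.2), with a median of 13 and a highest value of 22 Gata2 tags. This is 1.51 bins per 10 Mb of covered sequence, against 10.997 on the autosomes. Other Gata2 bins were likewise sparser on chromosome X, at 8.19 per 10 Mb against 56.7. The average bin of chromosome X held 0.808 times as many Gata2 tags as the average autosomal bin, 0.842 times as many Ldb1 tags, 0.767 times as many Tal1 tags and 1.07 times as many IgG tags. Turning the limits round for IgG gave 53 bins on chromosome X, more than the 19, and nothing is read from this count either.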
